A study of Mus musculus with 9 samples.

Results

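The genes described here are 9 factors of thymus and parathyroid development: Foxn1, Pax1, Pax9, Six4, Eya1, Hoxa3, Tbx1, Gcm2 and Pth. They were picked by symbol from the array's gene annotation, using probe sets that carry 1 symbol. Of the 9 genes, 8 had at least 1 such probe set, 20 probe sets in all, and they were compared among 18194 genes tested. Gcm2 had no matching probe set and is not analysed here. The study profiled sorted thymic cells of mice with a C57BL/6 background, used between 8 and 20 weeks of age. A bacterial artificial chromosome in these mice placed the green fluorescent reporter ZsGreen (ZsG) at the start codon of Tslp, the gene of an epithelial cytokine. There were 3 groups of 3 arrays each: reporter-positive cells (ZsG plus), reporter-negative medullary thymic epithelial cells (ZsG minus mTEC) and reporter-negative cortical thymic epithelial cells (ZsG minus cTEC). The labels do not say whether the ZsG plus cells were cortical or medullary, how the cells were gated, whether each replicate was a separate animal or a pool, or whether the reporter-negative cells came from the transgenic mice. The cell type field reads keratinocytes for every sample; the epithelial markers Epcam and Krt8 were bright on all arrays, with lowest readings of 9084 and 16029. The p-values thus measure only how far these samples differ, and that spread may be technical.

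The thymus and the parathyroid glands both arise from the third pharyngeal pouch, an outpocketing of the foregut endoderm. Hoxa3, Pax1, Pax9, Eya1 and Six4 with its relatives act early as a network that shapes the pouch, and loss of Hoxa3, Pax9 or Eya1 in mice leaves the thymus absent or badly misplaced. The pouch then divides into a thymus domain, marked by Foxn1, and a parathyroid domain, marked by Gcm2. Foxn1 drives the differentiation of thymic epithelium throughout life, whereas Gcm2 is needed for parathyroid cells, which secrete parathyroid hormone, the product of Pth. The comparisons ask how much of this developmental programme reporter-positive and reporter-negative adult thymic epithelium transcribed.

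The values are probe set intensities on a linear scale. Median intensity over all probe sets was lower in ZsG plus, at 230 to 316, against 366 to 424 in the reporter-negative groups. Gapdh signal at the 3' end over that at the 5' end, a ratio that rises as RNA is shortened, was higher in ZsG plus, at 6.71 to 10.6 against 4.55 to 5.97, while the same ratio for beta-actin overlapped between them. Their part in the results was not tested. Probe sets for bacterial genes, a measure of background, reached 117 to 341 as the highest reading on an array. The cortical markers Prss16 and Psmb11 and the medullary regulators Aire and Fezf2 were present in the pattern the group names imply: geometric mean levels of Prss16 were 48742 in ZsG minus cTEC, 2963 in ZsG minus mTEC and 1173 in ZsG plus, and those of Aire were 1973, 19854 and 16990. Not every listed marker followed. In ZsG minus mTEC relative to ZsG minus cTEC, 2 of 9 cortical markers were lower and 3 of 7 medullary markers higher at a limma adjusted p under 0.05. The log2 difference there was only −0.03 for Krt5 and −0.34 for Dll4. The medullary markers Krt14 and Tnfrsf11a differed by −0.22 and −0.15 in ZsG plus relative to ZsG minus cTEC. Tslp itself read 23.4 to 953 on the ZsG plus arrays and overlapped with both other groups.

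Relative to ZsG minus cTEC, the ZsG plus cells had far lower Pax1, Hoxa3 and Pth, and the ZsG minus mTEC level lay between the other two for each of them. Foxn1, the central regulator, had no called difference between any groups. Relative to ZsG minus cTEC, 3 of the 8 measured genes were called lower in ZsG plus and 0 higher (limma, Benjamini-Hochberg adjusted p under 0.05 over all genes), where 1.74% of all genes were called, 1.14% lower and 0.599% higher. At an unadjusted p under 0.05 there were 5 lower and 0 higher, against 11.3% and 7.44% of all genes (18.7% in either direction). Relative to ZsG minus mTEC, 0 of the 8 were called by limma, and 0.22% of all genes were, 0.203% lower and 0.0165% higher. At an unadjusted p under 0.05, 5 were lower and 0 higher, against 10.2% and 3.2% of all genes (13.4% in either direction). Between the reporter-negative groups 0 of the 8 were called by limma, against 0.627% of all genes, 0.0989% lower and 0.528% higher in ZsG minus mTEC. At an unadjusted p under 0.05, 3 were lower there and 0 higher, against 3.9% and 8.4% of all genes (12.3% in either direction). The median log2 difference of the 8 genes was −2.50 for ZsG plus relative to ZsG minus mTEC, −2.46 for ZsG plus relative to ZsG minus cTEC and −0.80 for ZsG minus mTEC relative to ZsG minus cTEC, beside −0.33, −0.14 and 0.09 over all genes. Each pair of comparisons shares a group of arrays, so they are not independent of each other. In bulk samples such as these, fewer cells of a type and less RNA per cell cannot be told apart.

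**Figure D1:**
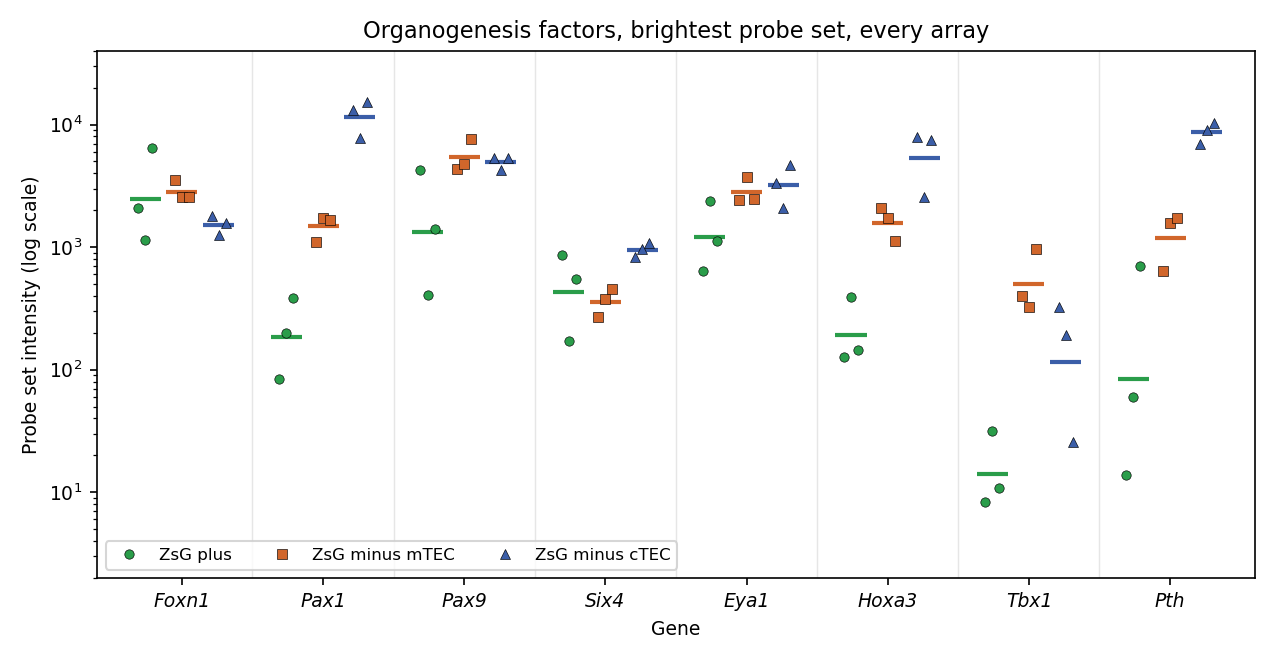
Intensity of the brightest probe set of each gene (vertical log axis) on every array, with 3 points per group and a bar at the geometric mean; circles are ZsG plus, squares ZsG minus mTEC and triangles ZsG minus cTEC. Pax1, Hoxa3 and Pth step down from ZsG minus cTEC to ZsG minus mTEC to ZsG plus, whereas the Foxn1 points of ZsG plus (1135 to 6377) span both other groups.

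Pax1 encodes a paired-box transcription factor expressed in pouch endoderm and kept in part of the adult thymic epithelium. Its brightest probe set (1449359_at) read 13176, 7811 and 15232 in ZsG minus cTEC, 1108, 1741 and 1670 in ZsG minus mTEC, and 84.0, 198 and 387 in ZsG plus. The 3 groups did not overlap, and every ZsG plus reading lay below every ZsG minus reading. The log2 difference between ZsG plus and ZsG minus cTEC was −5.97 ± 0.67 (SE, n = 3 arrays per group, limma adjusted p = 0.0094), a 62.5-fold difference with a 95% interval of 21.9 to 178. On 2 of the 3 ZsG plus arrays the reading was no higher than the brightest bacterial control, so the size of the fold is not settled; with 100 added to every intensity the difference was −5.29. Relative to ZsG minus mTEC, ZsG plus differed by −2.99 ± 0.67 (limma adjusted p = 0.12), and between ZsG minus mTEC and ZsG minus cTEC −2.98 ± 0.67 (limma adjusted p = 0.0925), neither of which passed. The second Pax1 probe set (1443476_at) read 764 to 1651 in ZsG minus cTEC, 543 to 1727 in ZsG minus mTEC, and only 243 to 410 in ZsG plus, so that ZsG plus lay below both without overlap, and it did not separate the reporter-negative groups (−0.25 ± 0.65).

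Hoxa3, a homeobox gene needed for the third pouch and its neural crest mesenchyme, followed the same order. Its brightest probe set (1452421_at) read 7919, 2575 and 7541 in ZsG minus cTEC, 2066, 1721 and 1114 in ZsG minus mTEC, and 126, 391 and 144 in ZsG plus, with no overlap between any 2 groups. The difference between ZsG plus and ZsG minus cTEC was −4.80 ± 0.70 on the log2 scale (limma adjusted p = 0.0225), with a 95% interval from −6.37 to −3.23. On 2 of the 3 ZsG plus arrays the Hoxa3 reading was no higher than the brightest bacterial control, so this size is not settled either; with 100 added to every intensity it was −4.19. Against ZsG minus mTEC it was −3.04 ± 0.70 (limma adjusted p = 0.129), and between the reporter-negative groups −1.76 ± 0.70 (limma adjusted p = 0.334). All 4 Hoxa3 probe sets had a negative difference in all 3 comparisons. The 3 dimmer ones, 1431392_at, 1427433_s_at and 1429398_at, were in the background range on all 3 ZsG plus arrays, so that no size can be given for them. The first 2 lay below ZsG minus cTEC without overlap, at 10.2 to 38.3 against 197 to 922 and at 101 to 155 against 470 to 831, and neither passed in the fit over every probe set (limma adjusted p = 0.0649 and 0.0917).

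Pth, the parathyroid hormone gene, had 1 probe set (1419345_at). It read 6886, 9049 and 10290 in ZsG minus cTEC, 639, 1565 and 1714 in ZsG minus mTEC, and 13.8, 60.0 and 704 in ZsG plus. The ZsG minus cTEC arrays agreed closely, with an SD of 0.30 on the log2 scale, whereas the ZsG plus arrays spread over 51.0-fold (SD 2.87) and the highest of them lay within the ZsG minus mTEC range. The difference between ZsG plus and ZsG minus cTEC was −6.69 ± 1.23 (limma adjusted p = 0.038), with a 95% interval from −9.45 to −3.93. The other comparisons did not pass, at −3.84 ± 1.23 for ZsG plus relative to ZsG minus mTEC (limma adjusted p = 0.237) and −2.85 ± 1.23 for ZsG minus mTEC relative to ZsG minus cTEC (limma adjusted p = 0.386). Readings in the background range occurred on 2 of the 3 ZsG plus arrays and on no other array.

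The calls for these 3 genes rest on few arrays. Leaving out any 1 of the ZsG minus cTEC arrays left none of them called, at limma adjusted p-values of 0.0503 to 0.135, with Pax1 between −6.25 and −5.77, Hoxa3 between −5.33 and −4.52 and Pth between −6.85 and −6.56. The Pth call was also lost without ZsG plus replicate 2 (limma adjusted p = 0.0506), and without any 1 ZsG minus mTEC array (0.0693 to 0.0722). Hoxa3 lost its call without ZsG minus mTEC replicate 3 (limma adjusted p = 0.0509). With ZsG plus replicate 3 left out, which held the highest Pth and Pax1 readings of its group, the Pth difference was −8.23, and Pth was also called lower than in ZsG minus mTEC, at −5.38 (limma adjusted p = 0.0475).

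**Figure D2:**
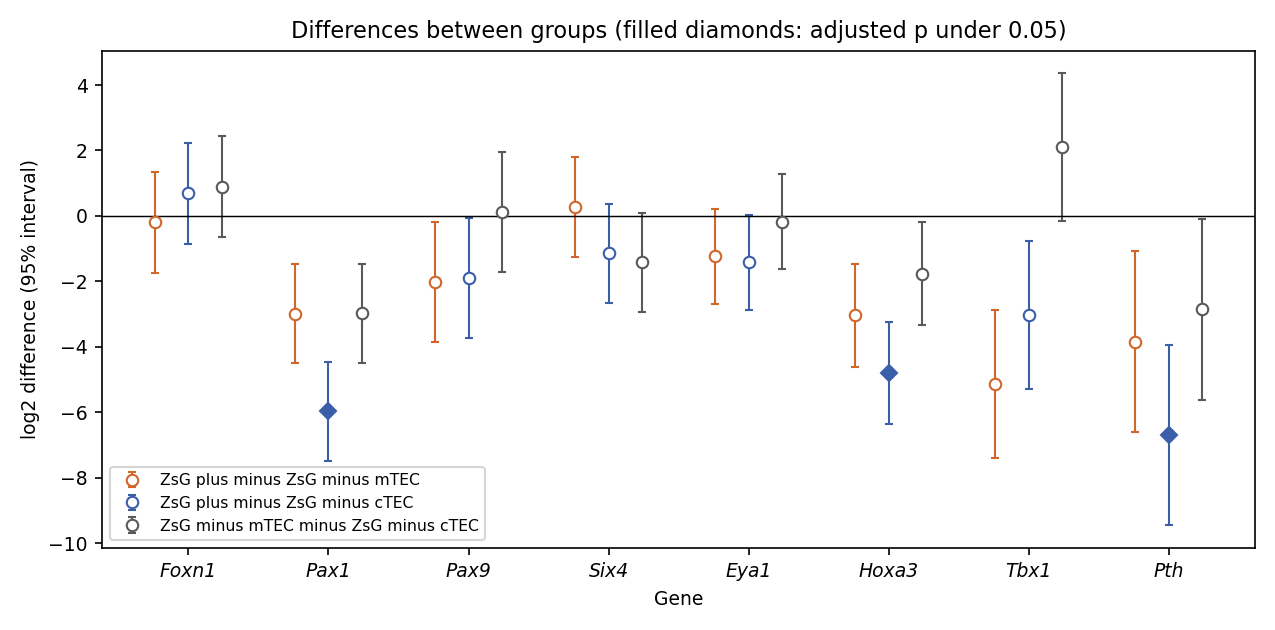
Log2 difference between groups for each gene (vertical axis) with its 95% interval from the fit; colours mark the 3 comparisons and filled diamonds those with a limma adjusted p under 0.05. The only filled diamonds are Pax1 (−5.97), Hoxa3 (−4.80) and Pth (−6.69) for ZsG plus relative to ZsG minus cTEC.

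The promoters of the 3 genes called lower are printed here beside that of Psmb11, a cortical gene known as a direct target of Foxn1, to show what sequence they carry upstream. They are the 250 bases before the annotated start, 5′ to 3′ on the gene's strand, from RefSeq for build GRCm38.p6: Pax1 at chr2:147364744-147364993 (+), Hoxa3 at chr6:52213068-52213317 (−), Pth at chr7:113388574-113388823 (−) and Psmb11 at chr14:54625060-54625309 (+). Capitals mark GACGC, the core bound by Foxn1, or its reverse complement GCGTC.
Pax1: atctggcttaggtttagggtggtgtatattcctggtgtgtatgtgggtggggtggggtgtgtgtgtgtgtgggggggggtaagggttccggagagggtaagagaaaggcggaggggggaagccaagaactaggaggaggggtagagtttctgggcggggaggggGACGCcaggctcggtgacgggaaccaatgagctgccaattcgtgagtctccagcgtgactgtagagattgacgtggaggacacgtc
Hoxa3: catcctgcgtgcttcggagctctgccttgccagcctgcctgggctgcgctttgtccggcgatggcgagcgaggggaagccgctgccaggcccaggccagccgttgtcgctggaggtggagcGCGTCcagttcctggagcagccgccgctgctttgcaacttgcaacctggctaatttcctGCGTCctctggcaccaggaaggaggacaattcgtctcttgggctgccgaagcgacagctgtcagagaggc
Pth: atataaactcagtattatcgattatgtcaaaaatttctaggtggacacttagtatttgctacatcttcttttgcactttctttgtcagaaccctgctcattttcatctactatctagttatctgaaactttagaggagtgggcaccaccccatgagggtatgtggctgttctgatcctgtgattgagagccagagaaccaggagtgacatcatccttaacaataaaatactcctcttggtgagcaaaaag
Psmb11: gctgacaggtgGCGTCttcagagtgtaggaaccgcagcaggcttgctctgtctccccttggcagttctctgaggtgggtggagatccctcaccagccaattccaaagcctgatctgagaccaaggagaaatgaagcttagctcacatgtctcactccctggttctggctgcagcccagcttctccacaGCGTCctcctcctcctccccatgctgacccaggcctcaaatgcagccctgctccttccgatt

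Pax1 held 1 match, 86 bases before the start; Hoxa3 held 2, at 129 and 70 bases, and Psmb11 held 2, at 239 and 62 bases. Pth held 0. Of 32851 promoters of the same length, 22.6% held at least 1 match on either strand and 5.86% held 2 or more. Of the 9 genes, 8 had a promoter entry (10 entries in all), and 3 of these genes, Pax1, Hoxa3 and Tbx1, held a match in at least 1 entry; Eya1 and Prss16 had no entry. The Pth and Gcm2 promoters were poor in CpG, with 1 CpG each in 250 bases, and the Hoxa3 promoter held 18, beside a median of 6 over all promoters. A match is a description of these letters only.

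Pax9, the paralog of Pax1 and itself required for thymus and parathyroid formation, showed no called difference. Its brightest probe set (1442229_at) read 5381, 4218 and 5355 in ZsG minus cTEC, 4333, 4738 and 7608 in ZsG minus mTEC, and 4232, 404 and 1401 in ZsG plus. The reporter-negative groups thus overlapped closely, at 0.12 ± 0.82, with a 95% interval from −1.72 to 1.96. ZsG plus lay lower than ZsG minus mTEC by a margin that did not pass, at −2.01 ± 0.82 (limma adjusted p = 0.343), and at −1.89 ± 0.82 against ZsG minus cTEC (limma adjusted p = 0.256). The other 2 probe sets ranked the ZsG plus arrays differently: 1421246_at read 2798, 8024 and 317, and 1421247_at read 10725, 2645 and 410. Their differences from ZsG minus mTEC were −1.54 ± 1.06 and 0.49 ± 1.17, so the probe sets of Pax9 did not have 1 sign. The mean brightness of 1421246_at was close to that of the probe set used, at 11.68 against 11.69 on the log2 scale.

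Eya1, a transcriptional coactivator and phosphatase that works with homeobox partners such as Six4, had a brightest probe set (1421727_at) at 3315, 2094 and 4699 in ZsG minus cTEC, 2428, 3723 and 2475 in ZsG minus mTEC, and 642, 2386 and 1124 in ZsG plus. All ZsG plus readings lay below all ZsG minus mTEC readings, 1 of them by a small margin. Its differences did not pass, at −1.23 ± 0.65 against ZsG minus mTEC (limma adjusted p = 0.441) and −1.41 ± 0.65 against ZsG minus cTEC (limma adjusted p = 0.279), and all 3 probe sets were negative in both. The dimmest Eya1 probe set, 1443117_at, varied most: it read 14.8, 3070 and 1685 in ZsG plus, whereas the ZsG minus mTEC range was 1455 to 1562.

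Six4, a homeobox partner of Eya1, had no called difference between any groups. Its brightest probe set (1425767_a_at) read 824, 958 and 1086 in ZsG minus cTEC, 267, 374 and 451 in ZsG minus mTEC, and 855, 171 and 548 in ZsG plus. The reporter-negative groups did not overlap, yet the difference of −1.42 ± 0.67 did not pass (limma adjusted p = 0.445). Against ZsG minus mTEC, ZsG plus differed by 0.28 ± 0.67, with a 95% interval from −1.24 to 1.79. The other 3 Six4 probe sets had the opposite sign in that comparison, at −0.50 ± 1.01 (1456862_at), −3.19 ± 1.39 (1439753_x_at) and −2.77 ± 0.98 (1427701_a_at). None of the 3 passed (limma adjusted p = 0.854, 0.356 and 0.276). All 4 Six4 probe sets, the brightest included (171), had at least 1 ZsG plus reading in the background range. The dimmest of its 4 probe sets, 1427701_a_at, read 7.5 to 52.6 in ZsG plus, in the background range on all 3 arrays, and 131 to 594 in ZsG minus cTEC, which did not pass (limma adjusted p = 0.091).

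Tbx1, a T-box gene of pharyngeal endoderm that lies in the region deleted in DiGeorge syndrome, was dim, with 1 probe set (1425779_a_at). It read 322, 191 and 25.7 in ZsG minus cTEC, 396, 322 and 972 in ZsG minus mTEC, and 8.33, 31.6 and 10.8 in ZsG plus. ZsG minus mTEC was the highest group and did not overlap with ZsG plus; its lowest reading barely cleared the highest of ZsG minus cTEC, 322.4 against 321.6. The difference between ZsG plus and ZsG minus mTEC was −5.14 ± 1.00, which did not pass (limma adjusted p = 0.0851). All 3 ZsG plus readings lay in the background range, so the size is not settled, and with 100 added to every intensity it was −2.38. Tbx1 differed by −3.04 ± 1.00 against ZsG minus cTEC (limma adjusted p = 0.156) and by 2.10 ± 1.00 between the reporter-negative groups (limma adjusted p = 0.447).

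Counted by overlap, 5 of the 8 brightest probe sets (those of Pax1, Pax9, Eya1, Hoxa3 and Tbx1) had all ZsG plus readings below all ZsG minus mTEC readings and 0 the reverse, against 12.3% and 5.77% of all genes. Pax9 cleared narrowly, at 4232 against 4333, and its almost equally bright probe set 1421246_at overlapped. Pax9 was also among the 5 genes lower there at an unadjusted p under 0.05, and 1421246_at did not reach that (limma unadjusted p = 0.181). For ZsG plus and ZsG minus cTEC the counts by overlap were 3 (Pax1, Hoxa3 and Pth) and 0, against 13.4% and 9.9% of all genes. In ZsG minus mTEC, 4 (Pax1, Six4, Hoxa3 and Pth) lay wholly below ZsG minus cTEC, against 11.8% of all genes, and 2 (Foxn1 and Tbx1) wholly above it, against 16.6%. Of all 20 probe sets, 6 lay wholly below and 0 above ZsG minus mTEC in ZsG plus (12.8% and 5.44% of all probe sets), and 7 below and 0 above ZsG minus cTEC (14.9% and 8.18%). In ZsG minus mTEC, 6 lay below and 3 above ZsG minus cTEC (12.3% and 13.7%). A negative difference was seen in 19 of the 20 for ZsG plus relative to ZsG minus cTEC, and in 18 relative to ZsG minus mTEC. It was seen in 13 for ZsG minus mTEC relative to ZsG minus cTEC. Probe sets of 1 gene are not independent, and the median over all genes was itself negative in the comparisons with ZsG plus, at −0.14 and −0.33. None of the 12 dimmer probe sets passed in any comparison (limma); 4, 3 and 2 of them were lower at an unadjusted p under 0.05 in ZsG plus against ZsG minus cTEC, ZsG plus against ZsG minus mTEC and ZsG minus mTEC against ZsG minus cTEC. The genes varied more within ZsG plus, with a median SD of 1.15 on the log2 scale over the 8 genes, than within ZsG minus mTEC (0.41) or ZsG minus cTEC (0.40). The same held for all genes, at medians of 1.30, 0.63 and 0.61.

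**Figure D3:**
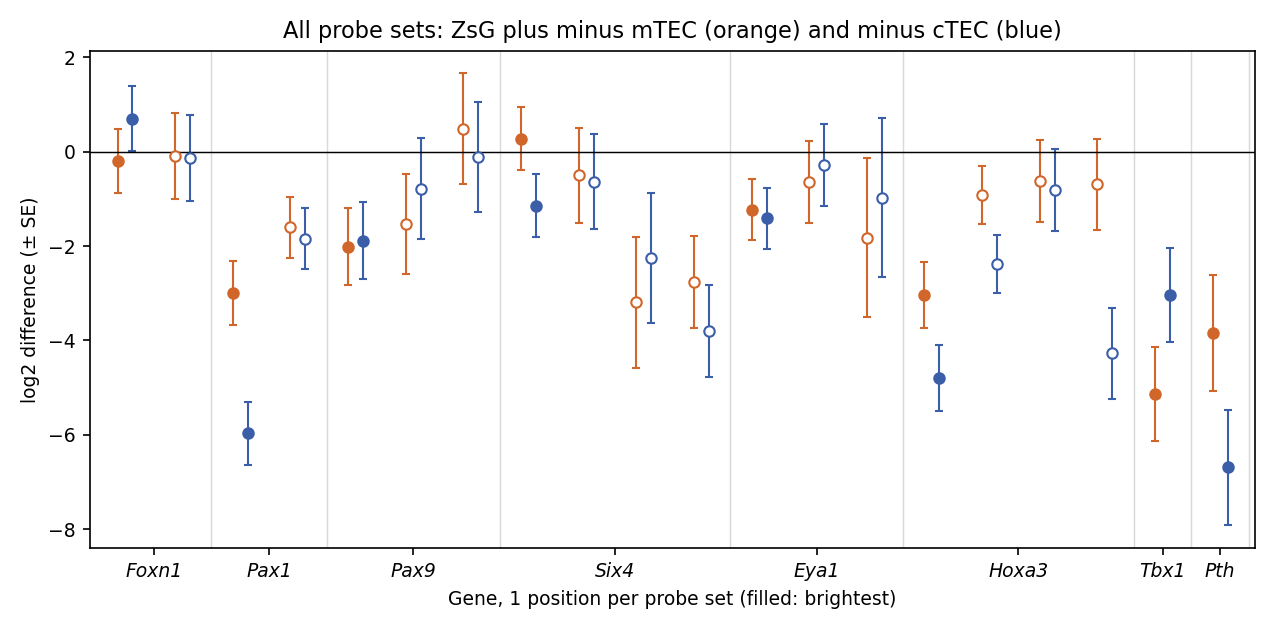
Log2 difference with its standard error (vertical axis) for each of the 20 probe sets, grouped by gene along the horizontal axis, with ZsG plus relative to ZsG minus mTEC in orange and relative to ZsG minus cTEC in blue; filled points are the brightest probe set of a gene. Most points lie below 0 (18 and 19 of 20), and the probe sets of Pax9 and Six4 spread widely within a gene.

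Foxn1, the forkhead factor on which thymic epithelial differentiation depends, read 1792, 1254 and 1571 in ZsG minus cTEC, 3517, 2554 and 2544 in ZsG minus mTEC, and 2086, 1135 and 6377 in ZsG plus (1450508_at). ZsG minus mTEC lay above ZsG minus cTEC on every array, by 0.90 ± 0.69, which did not pass (limma adjusted p = 0.712). ZsG plus overlapped with both and spread over 5.62-fold. It differed by −0.20 ± 0.69 from ZsG minus mTEC (limma adjusted p = 0.922, 95% interval −1.74 to 1.34) and by 0.70 ± 0.69 from ZsG minus cTEC (limma adjusted p = 0.617, 95% interval −0.84 to 2.24), and these wide intervals do not show that the levels were alike. The second Foxn1 probe set (1456815_at) also overlapped, at geometric means of 464 in ZsG minus cTEC, 454 in ZsG minus mTEC and 425 in ZsG plus.

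Among 9 genes known as targets of Foxn1, all measured, ZsG plus had 2 lower and 0 higher relative to ZsG minus cTEC (1.14% and 0.599% of all genes), with a median difference of −2.10. At an unadjusted p under 0.05, 7 were lower and 0 higher, against 11.3% and 7.44% of all genes. Psmb11, the thymoproteasome subunit, read 183, 2855 and 245 in ZsG plus and 18505, 12244 and 22292 in ZsG minus cTEC, and fell by 5.09 ± 1.03 (limma adjusted p = 0.0452). Prss16, a thymic serine protease, fell by 5.38 ± 0.64 (limma adjusted p = 0.0117). Without any 1 of the ZsG minus cTEC arrays neither was called, at limma adjusted p-values of 0.056 to 0.0688 for Prss16 and 0.137 to 0.159 for Psmb11, and Psmb11 was also not called without ZsG plus replicate 1 or 3 or any 1 ZsG minus mTEC array (0.0637 to 0.0804). The brightest targets without a call were the chemokine gene Ccl25, at −1.16 ± 0.50, and the costimulatory receptor gene Cd40, which read 8544 to 16573 in ZsG plus and 8379 to 14848 in ZsG minus cTEC. Between ZsG minus mTEC and ZsG minus cTEC, 2 targets were called lower and 0 higher, against 0.0989% and 0.528% of all genes. The list median was −1.04. The called genes were Prss16 (−4.04 ± 0.64, limma adjusted p = 0.0422) and Cd83, a surface protein of cortical epithelium (−3.18 ± 0.52, limma adjusted p = 0.0447). Both calls were lost without any 1 array of these groups (limma adjusted p = 0.105 to 0.16). At an unadjusted p under 0.05, 4 of the 9 were lower in ZsG minus mTEC and 0 higher, against 3.9% and 8.4% of all genes. Between ZsG plus and ZsG minus mTEC 0 of the 9 were called by limma, 0 had an unadjusted p under 0.05, and the median was −0.61.

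**Figure D4:**
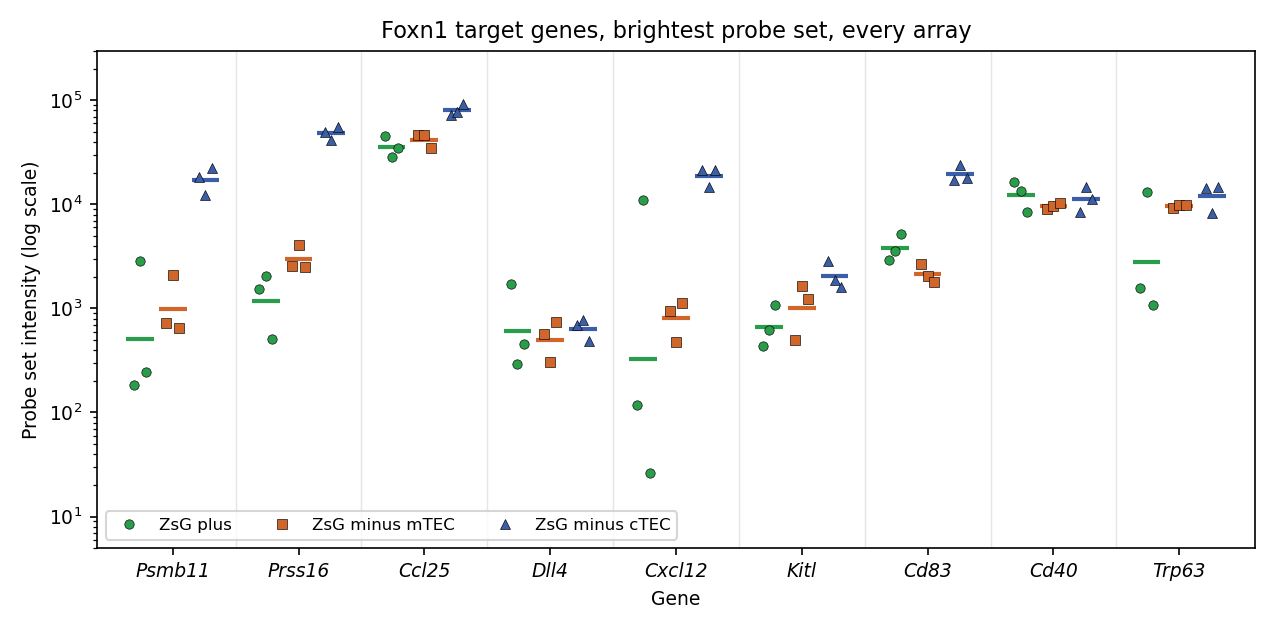
Intensity (vertical log axis) of the brightest probe set of 9 Foxn1 target genes on every array, with the geometric mean of each group as a bar; circles are ZsG plus, squares ZsG minus mTEC and triangles ZsG minus cTEC. Psmb11, Prss16, Ccl25, Cxcl12 and Cd83 are highest in ZsG minus cTEC, Cd40 and Dll4 overlap between all groups, and 1 ZsG plus array lies far above the other 2 for Cxcl12 (11083) and Trp63 (13123).

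No other gene of the parathyroid list was called. Of 7 listed, all measured, 0 were called in any comparison by limma, against 0.22% to 1.74% of all genes. The median difference between ZsG plus and ZsG minus cTEC was 1.09. That value was set by Slc34a1, which read 6.88 to 30.1 in these groups, in the background range. Chga, the brightest of the list, differed by −1.12 ± 1.21, the same sign as Pth. At an unadjusted p under 0.05, 1 was lower in ZsG plus relative to ZsG minus mTEC, against 10.2% of all genes. Between ZsG plus and ZsG minus cTEC 0 passed, against 18.7%, and 3 were higher in ZsG minus mTEC relative to ZsG minus cTEC, against 8.4%. Casr, the calcium-sensing receptor that controls hormone release, read 79.6 to 218 in ZsG minus cTEC, where Pth was highest, 192 to 625 in ZsG minus mTEC, against 105 to 550 in ZsG plus. Chga, which encodes the secretory granule protein chromogranin A, read 3928 to 5151 in ZsG minus cTEC, 1774 to 2994 in ZsG minus mTEC, against 216 to 9386 in ZsG plus. Vdr, the vitamin D receptor gene, had its highest readings in ZsG minus mTEC (3119 to 5161) and its lowest in ZsG minus cTEC (825 to 1228), a difference of 2.03 ± 0.57 that did not pass (limma adjusted p = 0.16). Of 9 thyroid genes 6 were measured and 0 were called by limma in any comparison. At an unadjusted p under 0.05, 1 was lower in ZsG minus mTEC relative to ZsG minus cTEC, against 3.9% of all genes. The iodide transporter gene Slc5a5 read 105 to 282 in ZsG plus and 112 to 1076 in ZsG minus cTEC, and the foregut homeobox gene Hhex 144 to 375 and 340 to 592.

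**Figure D5:**
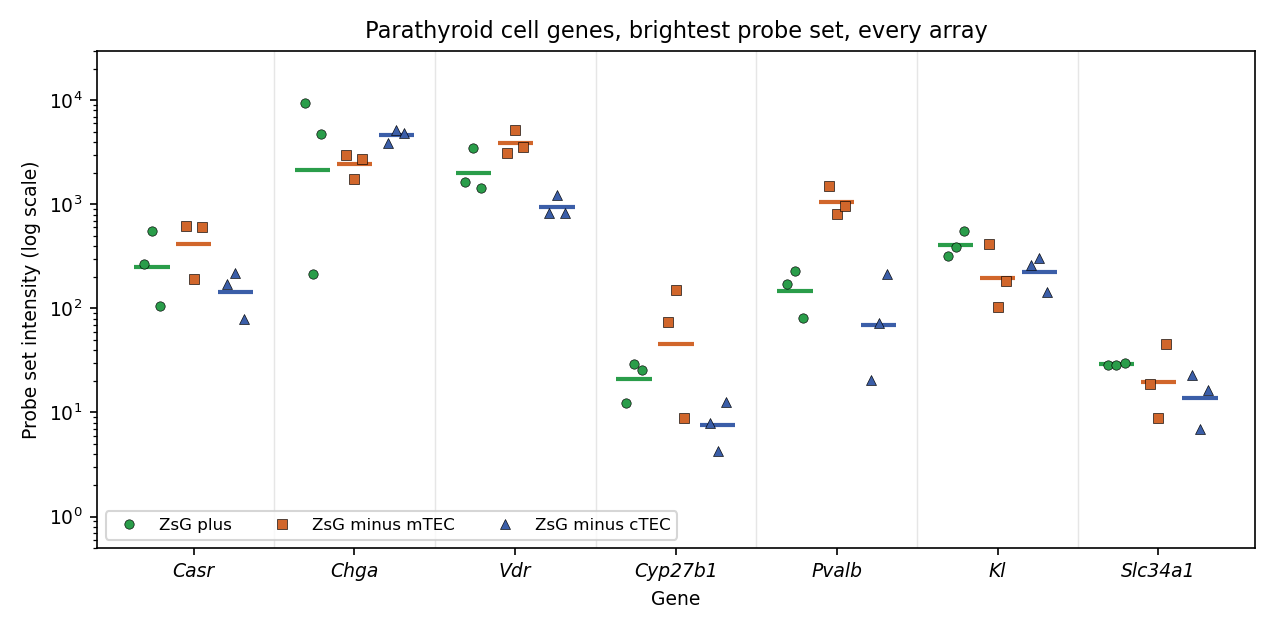
Intensity (vertical log axis) of 7 parathyroid cell genes on every array, with group geometric means as bars; circles are ZsG plus, squares ZsG minus mTEC and triangles ZsG minus cTEC. Vdr is lowest in ZsG minus cTEC and Casr overlaps between groups, unlike Pth, which was highest in ZsG minus cTEC on every array.

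The wider pouch network was described from lists of related genes. Of 16 other patterning factors 11 were measured and 0 were called by limma in any comparison, against 0.22% to 1.74% of all genes. At an unadjusted p under 0.05, ZsG plus had 2 lower relative to ZsG minus mTEC and 1 higher relative to ZsG minus cTEC. The shares of all genes were 10.2% and 7.44%. ZsG minus mTEC had 2 higher relative to ZsG minus cTEC, against 8.4% of all genes. Their brightest members, Sox9 and the LIM homeobox gene Isl1, differed by 0.97 ± 0.52 and 1.00 ± 0.60 in ZsG plus relative to ZsG minus cTEC, which did not pass. Of 20 signalling ligands and receptors, all measured, ZsG plus had 2 lower and 0 higher relative to ZsG minus cTEC (1.14% and 0.599% of all genes), with a median of −1.13. At an unadjusted p under 0.05, 5 were lower and 3 higher, against 11.3% and 7.44% of all genes. Bmp4, a ligand that acts upstream of Foxn1 in the pouch, read 7.83, 12.8 and 5.14 in ZsG plus, at the level of background, and 882, 196 and 352 in ZsG minus cTEC (−5.62 ± 0.87, limma adjusted p = 0.0258; −2.23 with 100 added to every intensity). Smo, the signal transducer of the hedgehog pathway, read 26.2, 270 and 132 in ZsG plus, all in the background range, and 5274, 2662 and 1967 in ZsG minus cTEC (−4.95 ± 0.94, limma adjusted p = 0.0417; −3.82 with 100 added). Neither was called without any 1 of the ZsG minus cTEC arrays (limma adjusted p = 0.0727 to 0.157), Smo also not without ZsG plus replicate 3 (0.0539) or any 1 ZsG minus mTEC array (0.0652 to 0.0772), and Bmp4 not without ZsG minus mTEC replicate 1 (0.0525). The related ligand gene Bmp2 ran the other way between the reporter-negative groups, at 86.7 to 307 in ZsG minus cTEC against 1843 to 2626 in ZsG minus mTEC. Its difference of 3.67 ± 0.66 (limma adjusted p = 0.0497) was 1 call of 20 there, where 0.528% of all genes were called higher. The call was lost without any 1 array of these groups (limma adjusted p = 0.123 to 0.188). The bright receptor genes Bmpr1a and Fgfr2 differed between ZsG plus and ZsG minus cTEC by −0.57 ± 0.54 and −1.17 ± 0.63 and did not pass. Between ZsG plus and ZsG minus mTEC 0 of the 20 were called by limma. At an unadjusted p under 0.05, 2 were higher and 4 lower, against 3.2% and 10.2% of all genes. Of 22 family relatives of the 9 genes, 18 were measured and 0 were called by limma in any comparison. At an unadjusted p under 0.05, 5 of these were lower in ZsG plus relative to ZsG minus cTEC, against 11.3% of all genes. Foxn3, a forkhead gene of the Foxn1 family, read 4217 to 7668 in ZsG plus and 5262 to 8831 in ZsG minus cTEC, and Eya4, a relative of Eya1, 773 to 8499 and 2099 to 4627.

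Among markers of other cells, some lists were lower in ZsG plus relative to ZsG minus cTEC and others were not. In this comparison 1.14% of all genes were called lower and 0.599% higher. At an unadjusted p under 0.05 these shares were 11.3% and 7.44% (18.7% in either direction). Of 11 measured thymocyte markers, ZsG plus had 2 lower and 0 higher relative to ZsG minus cTEC (8 and 0 at an unadjusted p under 0.05). Their summed intensity was 49221 to 64393 in ZsG minus cTEC, 6300 to 10130 in ZsG minus mTEC, against 7145 to 9343 in ZsG plus. Of 10 measured markers of fibroblasts and neural crest mesenchyme, a cell type in which Hoxa3 is also known to act, ZsG plus had 2 lower and 0 higher relative to ZsG minus cTEC (7 and 0 at an unadjusted p under 0.05). Their sums were 55595 to 75222 in ZsG minus cTEC, 8575 to 13985 in ZsG minus mTEC, against 9056 to 26158 in ZsG plus. Of 6 mesothelial markers, 2 were lower and 0 higher, and the counts were the same at an unadjusted p under 0.05. Their sums were 8913 to 18067, 5411 to 7146 and 3635 to 17609 in the same order, so ZsG plus overlapped with ZsG minus cTEC. The lowest readings of the thymocyte, fibroblast and mesothelial lists were 13.1, 6.61 and 8.80, in the background range. A reading above 0 thus does not show that a marker was present. Between ZsG plus and ZsG minus mTEC the sums of these 3 lists overlapped. The list medians there were −0.64 for thymocytes, 0.10 for fibroblasts and mesenchyme and −0.33 for mesothelium. Some single markers did not overlap, in either direction. The mesothelial gene Upk3b read 22.7 to 53.6 in ZsG plus and 445 to 1164 in ZsG minus mTEC and was called lower (−4.48 ± 0.63, limma adjusted p = 0.0409), and it was the 1 marker of any list called in that comparison. Its ZsG plus readings were all in the background range (−2.57 with 100 added), and its call was lost without any 1 array of the reporter-negative groups (limma adjusted p = 0.0767 to 0.176). The fibroblast marker Gas1 read 12.2 to 127 against 721 to 1587 and did not pass (limma adjusted p = 0.0743). Pdgfra, of the same list, ran the other way, at 179 to 1033 against 82.0 to 164, and did not pass (limma adjusted p = 0.356). What part these cells had in the differences of Pax1, Hoxa3, Tbx1 and Pth was not tested. The 8 general epithelial markers had sums of 110987 to 150292 in ZsG minus cTEC, 172412 to 181349 in ZsG minus mTEC, against 215357 to 313750 in ZsG plus. This order, opposite to that of Pax1, Hoxa3 and Pth, did not hold for every marker. By geometric mean Epcam, Krt8 and Cldn3 followed it. Krt14, Cdh1 and Cldn4 were highest in ZsG minus mTEC, and Krt18 and Krt5 were lowest there. For the remaining lists, calls between ZsG plus and ZsG minus cTEC numbered 3 lower of 9 cortical epithelial markers, 3 higher of 7 medullary markers, and 0 of 10 dendritic cell and macrophage, 0 of 6 endothelial and 0 of 2 erythroid markers by limma (0, 1 and 1 at an unadjusted p under 0.05). The medians of the dendritic cell and macrophage, endothelial and erythroid lists in that comparison were 0.18, −0.82 and 2.16.

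Across the 9 arrays, Pax1 and Pth had a Pearson correlation of 0.958 on the log2 scale, Pax1 and Hoxa3 0.935, and Hoxa3 and Pth 0.829, whereas Foxn1 correlated with no other member above 0.094. These values describe 9 arrays that share 3 groups, so any genes that differ between the groups in the same order correlate. Among the 9097 genes at or above the median of mean intensity, the genes most like Pax1 were Mgp, which encodes matrix Gla protein (0.983), Rapgef3 (0.977) and Cep170 (0.973). The genes most like Pth were Nxn (0.993), Cep170 (0.972) and Pax1 itself. For Foxn1 they were Gbp6, a guanylate-binding protein gene (0.982), Serinc3 (0.978) and Mtmr7 (0.972). Mgp had geometric mean levels of 8669 in ZsG minus cTEC, 2005 in ZsG minus mTEC and 465 in ZsG plus, the same order as Pax1.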

How the data were processed

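RNA (5 ng per sample) was amplified and hybridised to 9 arrays, 3 per group, per the labels' protocols. The authors deposited linear probe set intensity values for 45101 probe sets; the software is not given in the sources used here. The deposited arrays share a 2% trimmed mean of 1250, the mark of a global scaling. Precision is limited by the array number. All values were log2 transformed with no offset. Of the probe sets, 34958 had 1 symbol, 932 several and 9211 none; only the first were named or tested, with the brightest (highest mean log2 over the 9 arrays) standing for a gene. The fit used limma 3.58.1 under R 4.3.3 (lmFit and eBayes, 1 coefficient per group, 6 residual and 3.28 prior degrees of freedom, two-sided, Benjamini-Hochberg over 18194 genes, threshold 0.05). Errors after ± are standard errors of log2 differences. They rest on a spread per gene shared by all groups. The wider ZsG plus spread thus also enters the comparison of the reporter-negative groups. In the comparisons with ZsG plus it is averaged with the smaller spread of the others. Values for dimmer probe sets come from the same fit over all 34958. The genes and lists were chosen with earlier results of these data known. Named from each list were up to 4 called genes per direction and the 2 brightest others. The check of the group names used Prss16, Psmb11, Aire and Fezf2. Casr, Slc34a1, Upk3b, Gas1, Pdgfra, Krt5, Dll4, Krt14 and Tnfrsf11a, and the genes named in figure captions, were added after their values were seen. The 3 best-correlated genes were named for Foxn1, Pax1 and Pth. The steps were tested on simulated data. Alternatives changed the probe sets, filter, scaling, offset, weights, arrays and replicate block. Figures were drawn with matplotlib 3.10.9.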

Additional observations from a re-analysis of the deposited data

How the results depend on the processing

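Pax1, Hoxa3, Pth and Tbx1 kept their signs in every comparison under each of the 17 alternatives that tested them. Not all of these could change a sign. Testing every probe set, the filter, only the 6 arrays and the replicate block change the error and not the difference. The same holds for leaving out an array of the group not compared. A kept sign was fixed in advance there. The 3 members called between ZsG plus and ZsG minus cTEC became 0 when limma was given only the 6 arrays compared and 1 with the replicate block, and ranged from 0 to 3 when 1 array was left out; Pth lost its call with quantile normalization and Hoxa3 with array weights. Between ZsG plus and ZsG minus mTEC this count ranged from 0 to 1 when 1 array was left out. Between the reporter-negative groups it was 1 with an offset of 100 (Pax1), 2 with array weights and 2 with only the 6 arrays (Pax1 and Pth), and 0 to 1 when 1 array was left out. For ZsG plus against ZsG minus mTEC, the 40 genes called became 15 with quantile normalization, 3 with centring, 115 with the offset, and 0 with array weights, only the 6 arrays or the replicate block, and 0 to 230 when 1 array was left out. For ZsG plus against ZsG minus cTEC, the 317 became 504 with the 40th percentile filter, 816 with the offset, 37 with array weights, 0 with only the 6 arrays, 16 with the replicate block, and 0 to 735 when 1 array was left out. For the reporter-negative groups, the 114 became 27 over every probe set, 176 with the filter, 178 with quantile normalization, 48 with centring, 402 with the offset, 1220 with array weights, 548 with only the 6 arrays, 0 with the replicate block, and 0 to 304 when 1 array was left out. Where limma called 0 genes, 1705 to 2320, 2437 to 2704 and 1697 to 2172 had an unadjusted p under 0.05 in the 3 comparisons, in the order ZsG plus against ZsG minus mTEC, ZsG plus against ZsG minus cTEC, and the reporter-negative groups. The share of called genes that were higher moved from 7.5% to 26.7% with quantile normalization and 33.3% with centring in the first, and from 34.4% to 53.2% and 58.3% in the second; centring moved the median over all genes from −0.33 to 0.30 and from −0.14 to 0.32. Differences near 0 changed sign: Foxn1 between ZsG plus and ZsG minus mTEC to 0.43 with centring and 0.36 without ZsG plus replicate 2, Six4 there to −0.22 without ZsG plus replicate 1, and between the reporter-negative groups Pax9 to −0.054 with centring and −0.13 without ZsG minus mTEC replicate 3, and Eya1 to 0.097 without ZsG minus cTEC replicate 3. With 1 array left out these 4 differences ranged from −0.88 to 0.36, −0.22 to 0.94, −0.13 to 0.28 and −0.49 to 0.097. Among list genes, the differences of Prss16, Psmb11, Cd83, Bmp4, Smo and Bmp2 kept their direction under all alternatives that tested them, with the same limit. None of their calls was kept with the replicate block. The cause of these shifts was not tested.

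Deviations of same-numbered samples correlated between −0.015 and 0.0132 across the groups, and of others between −0.0224 and 0.0114. By this measure the shared replicate numbers gave no sign of pairing. With so few arrays per group, such correlations cannot show that same-numbered samples were unrelated. Whether those samples shared mice or a sorting day was not tested. With the replicate block, Pax1 remained called (limma adjusted p = 0.0419), while Hoxa3 and Pth did not pass (0.0762 and 0.0651). Tbx1 was not tested under the percentile filter, which left it out. Readings at the level of the bacterial controls, among them all those of Tbx1 in ZsG plus, bound how well a fold can be known.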
